A study of Drosophila melanogaster with 12 samples.

Results

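The subject is the difference between 2 diet effects in adult female Drosophila melanogaster, the effect of a glucose-enriched diet in the midgut minus its effect in the whole fly. A diet effect is the mean log2 signal on glucose minus the mean log2 signal on unmodified food, and the difference is (midgut glucose - midgut unmodified) - (whole fly glucose - whole fly unmodified). Members are the probe sets of the array with a mean of at least 5 in the unmodified arrays of both tissues, so that a shift in either direction could be seen in both. The rule kept 6276 of 18769 probe sets. Of these, 5529 carry 1 gene symbol, 167 carry several and 580 carry none listed, and the named ones stand for 5311 genes. Just inside the threshold lay CG14408, CG3594 and Mkp3, whose smaller unmodified mean rounded to 5.00. Just outside lay SA1, east and Mdr65, at 4.99992, 4.99988 and 4.99939. The members were chosen by level in the unmodified arrays, which also enter both diet effects, and 158 probe sets below 5 in unmodified midguts and 74 below 5 in unmodified whole flies reached 5 on glucose and are not members.

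The 4 groups of 3 arrays each were midguts on glucose, midguts on unmodified food, whole flies on glucose and whole flies on unmodified food. All flies were 10-day-old w1118 females, a white-eyed laboratory stock, and each sample held RNA of 10 dissected midguts or of 5 whole flies. Before eclosion they grew on cornmeal food, and as adults they spent 10 days at 25 °C on holidic food, which is a fully defined synthetic diet, with or without glucose enrichment (100 g/L). Affymetrix 3' arrays were hybridised with biotin-labelled cRNA. The labels do not state whether replicates were independent cultures. Every p-value rests on the spread between arrays within groups of 3, pooled over the groups fitted and moderated over all probe sets. That spread may be technical, and 3 arrays a group limit precision.

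The midgut is the digestive and absorptive part of the fly intestine. Enterocytes, its absorptive cells, secrete digestive enzymes and carry detoxifying enzymes and nutrient transporters, and enteroendocrine cells among them release peptide hormones. A whole adult female holds the midgut as one organ among others, with large contributions from ovary, fat body, muscle, head and cuticle, so whole-fly RNA contains midgut RNA as well. In bulk RNA a lower signal from fewer cells of a type and one from less RNA per cell cannot be told apart, and in whole flies a shift in any organ moves the share of all others.

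By their means, enterocyte, photoreceptor and germline markers were high and low in the tissues where the labels place them. The mean log2 signal of 7 measured enterocyte markers was 12.04 to 12.09 in midguts on glucose and 12.03 to 12.14 in midguts on unmodified food, and 9.52 to 9.89 in whole flies on glucose and 8.98 to 9.80 in whole flies on unmodified food. The 8 measured photoreceptor markers stayed at 2.70 to 2.75 in midguts on glucose and 2.76 to 2.81 in midguts on unmodified food, which is near the dim end of the scale, and reached 8.46 to 9.23 in whole flies on glucose and 7.47 to 7.94 in whole flies on unmodified food. Germline markers, 9 measured, lay at 2.90 to 4.94 and 2.56 to 3.84 in midguts on glucose and on unmodified food, and at 7.97 to 8.24 and 8.48 to 8.75 in whole flies on glucose and on unmodified food. Among them osk had 9.55, 4.97 and 3.42 in midguts on glucose and 5.64, 1.80 and 2.70 in midguts on unmodified food. For orb these were 6.32, 2.57 and 2.02, and 2.81, 1.59 and 2.29, while vas stayed at 1.79 to 2.13 in midguts. Midgut glucose replicate 1, highest for osk and orb, enters every midgut effect, and the part of its germline signal was not tested. Fat body markers were present in midgut samples too, at 8.99 to 9.34 on glucose and 9.48 to 9.52 on unmodified food, without overlap. Malpighian tubule markers, 6 measured, were by their mean higher in midgut samples, 7.54 to 7.98 on glucose and 7.67 to 8.04 on unmodified food, than in whole flies, 5.97 to 6.31 on glucose and 5.85 to 6.19 on unmodified food. Singly, salt, Irk1, Irk3 and NaPi-T were higher in midgut samples without overlap, while ZnT35C and Ucp4C overlapped between tissues. ZnT35C lay at 7.47 to 7.96 in midguts and 7.26 to 7.83 in whole flies. Array medians were 3.43 to 3.47 in midguts and 4.04 to 4.15 in whole flies.

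The diet moved members more in whole flies than in midguts. Over the members the SD of the diet effect was 0.239 in midgut and 0.394 in whole fly, although the median SD between arrays of a group was 0.183 in midgut and 0.169 in whole fly. The effect was larger in size in whole fly for 4090 members, or 65.2%. The median member effect was 0.04 in midgut and -0.03 in whole fly, and the median difference was 0.06 with quartiles of -0.23 and 0.31. The 2 effects correlated across members with a Pearson r of 0.13 and a Spearman rho of 0.04, a description over 6276 probe sets that share arrays and are not independent. Signs were opposite for 3140 members.

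One member passed the limma test of the difference with Benjamini-Hochberg adjustment, CG2186, and 0.0426% of all 18769 probe sets passed. At an unadjusted limma p under 0.05 stood 1435 members, or 22.9%, of which 883 had a positive and 552 a negative difference, beside 15.1% of all probe sets, 8.81% positive and 6.28% negative. Of the 1435, 1207 had the larger effect in whole fly and 1142 had opposite signs in the tissues. The split between positive and negative depended on scaling. It was 1106 to 423 after median centring, 723 to 722 after quantile normalization over 12 arrays and 621 to 640 after quantile normalization within each tissue. The count fell to 914 without whole fly glucose replicate 1 and 935 without whole fly unmodified replicate 2.

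**Figure D1:**
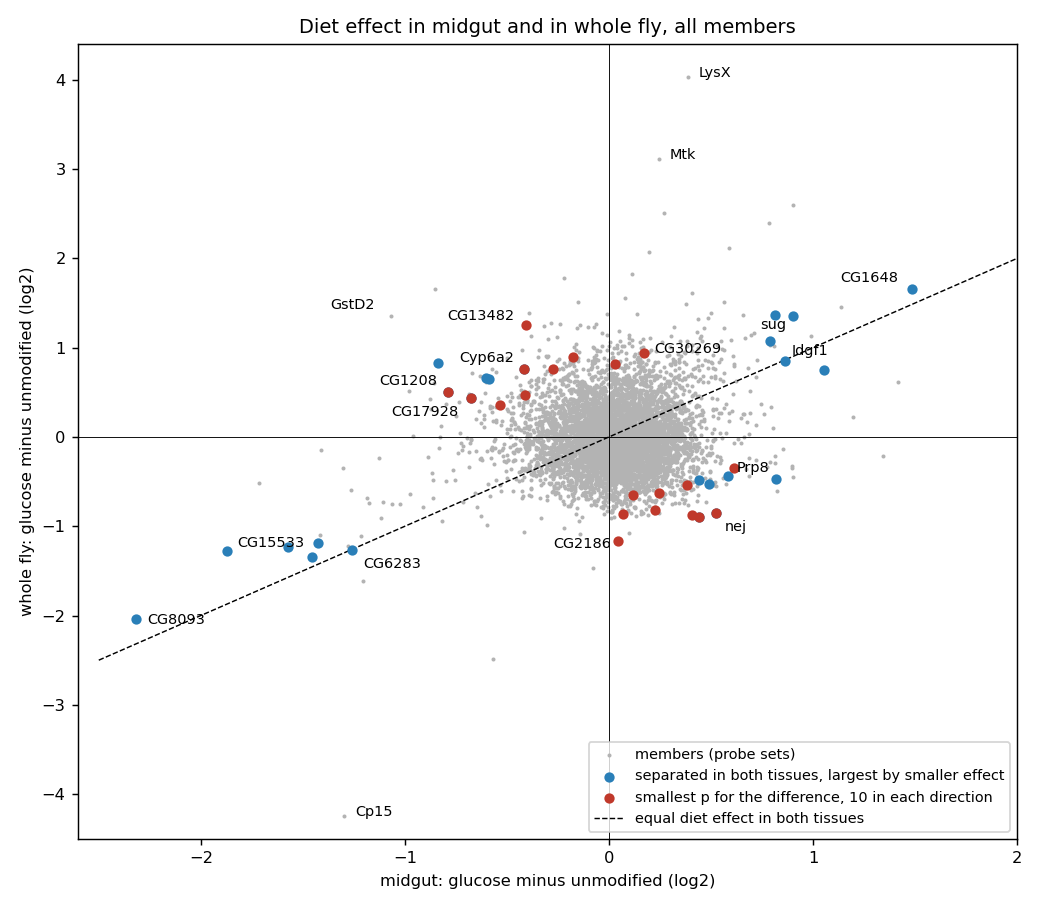
Each point is 1 of the 6276 members, with the log2 diet effect (glucose minus unmodified) in midgut on the horizontal axis and in whole fly on the vertical axis. Red points are the 10 members with the smallest p for the difference in each direction, and the dashed line marks equal effects. Blue points are only some of the members whose diets did not overlap in either tissue. For each combination of signs in the tissues, they are those largest by the smaller effect. The cloud is taller than wide (SD 0.394 in whole fly, 0.239 in midgut), and the members near the dashed line at the upper right and lower left, such as CG1648 and CG8093, had like effects in both tissues.

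CG2186 had 5.16, 5.26 and 5.28 in midguts on glucose and 5.12, 5.19 and 5.26 in midguts on unmodified food. In whole flies it had 6.46, 6.81 and 6.72 on glucose and 7.73, 8.01 and 7.75 on unmodified food. The midgut diets overlapped and the whole-fly diets were apart by more than their spread. The effects were 0.04 (SE 0.09) in midgut and -1.17 (SE 0.13) in whole fly (limma adjusted p = 0.031 for whole fly), and the difference was 1.21 (SE 0.16), with an adjusted p of 0.0499993. With the replicate number as a block in midgut, where same-numbered arrays deviated together, that adjusted p was 0.0552 and no probe set passed, and with a block in each tissue 383 members and 3.99% of all probe sets passed. Over all alternatives it lay between 0.0159, without whole fly glucose replicate 2, and 0.134, without whole fly unmodified replicate 1, while the difference stayed between 1.08 and 1.28.

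In midgut alone 1 member passed, and 0.00533% of all probe sets. In whole fly alone 308 members passed, or 4.91%, 142 higher (2.26%) and 166 lower (2.64%), beside 3.11% of all probe sets, 1.32% higher and 1.8% lower. The whole-fly count was 784 without whole fly glucose replicate 2, and it was 0 without glucose replicate 1, glucose replicate 3 or unmodified replicate 1 and 1 without unmodified replicate 2 or unmodified replicate 3. Below, "rose" and "fell" in whole fly refer to that test over 6 arrays.

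The direction of the difference varied with where a transcript was abundant. The 500 members whose level averaged over both diets was at least 2 lower in midgut than in whole fly had a median difference of 0.45, with a median effect of 0.10 in midgut and -0.36 in whole fly. The 394 members at least 2 higher in midgut had a median difference of -0.50, with a median effect of -0.12 in midgut and 0.37 in whole fly. Between these, the medians of the difference ran 0.27, 0.06, -0.16 and -0.36 over bands 1 to 2 lower, 0 to 1 lower, 0 to 1 higher and 1 to 2 higher in midgut. Positive differences at an unadjusted p under 0.05 made up 37.2% of the band lowest in midgut and 0.254% of the band highest in midgut, and negative ones 4.6% and 32.0%. The bands were set after the data were seen and are a description. Without whole fly unmodified replicate 2 the median of the band highest in midgut was -0.25, and without whole fly unmodified replicate 1 it was -0.65. Choosing members by their mean over both diets instead gave -0.51 for that band and 0.45 for the band lowest in midgut.

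Within a band the 2 effects also ran more alike the more a transcript was concentrated in the midgut. Pearson's r across members between the midgut and the whole-fly effect was 0.20 in the band lowest in midgut, 0.21 and 0.22 in the next bands, then 0.25 and 0.43, and 0.53 in the band highest in midgut. These are correlations over probe sets on the same 12 arrays, given as a description.

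**Figure D2:**
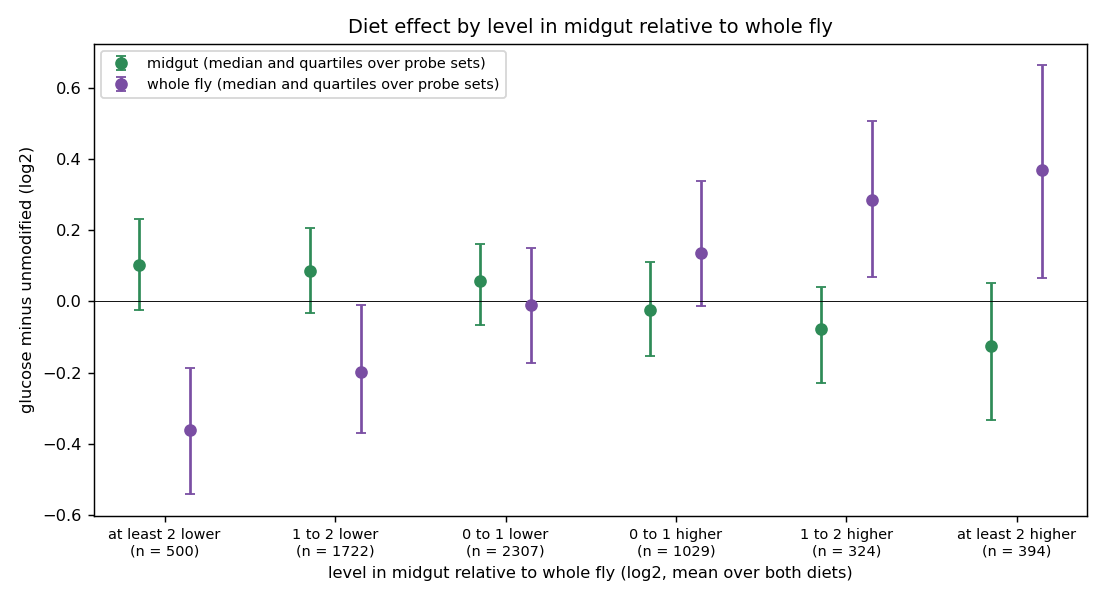
Diet effect (glucose minus unmodified, log2, vertical axis) for members in 6 bands of midgut level relative to whole-fly level (horizontal axis, number of probe sets below each band). Points are medians and bars span the quartiles over probe sets, green for midgut and purple for whole fly. The midgut median is 0.10 in the band lowest in midgut and -0.12 in the band highest in midgut, while the whole-fly median is -0.36 and 0.37 in those bands.

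Among members with the smallest p for a positive difference, regulators of transcription and signalling stood beside genes with no role given here. nej encodes the transcriptional coactivator CREB-binding protein. It had 6.92, 6.76 and 6.92 in midguts on glucose and 6.16, 6.68 and 6.19 in midguts on unmodified food, and 7.44, 7.88 and 7.94 in whole flies on glucose and 8.52, 8.86 and 8.43 in whole flies on unmodified food. Neither tissue's diets overlapped, and they were apart in opposite directions. The difference for nej was 1.38 (SE 0.24, limma adjusted p = 0.0578), and 1 of its 2 probe sets is a member. The midgut effect of nej, 0.52, did not pass (adjusted p = 0.697), and it fell by 0.85 in whole fly (adjusted p = 0.0451).

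Smurf, a ubiquitin ligase that limits BMP signalling, had 6.57, 6.60 and 6.86 in midguts on glucose, 6.57, 6.53 and 6.72 in midguts on unmodified food, 7.19, 7.60 and 7.29 in whole flies on glucose and 8.28, 8.24 and 8.14 in whole flies on unmodified food. Its whole-fly diets were apart, its midgut diets overlapped, and it fell by 0.86 in whole fly (adjusted p = 0.0347). hang, a zinc finger gene known from ethanol tolerance, had a difference of 1.28, and it fell in whole fly by 0.88. The hang arrays read 6.43, 6.35 and 5.90 in midguts on glucose, 5.80, 5.93 and 5.73 in midguts on unmodified food, 7.58, 7.85 and 7.91 in whole flies on glucose and 8.55, 8.97 and 8.46 in whole flies on unmodified food. In midgut hang overlapped by 1 array.

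CG8026, of the mitochondrial carrier family, had 9.34, 9.53 and 9.20 in midguts on glucose and 8.79, 8.56 and 8.88 in midguts on unmodified food, against 8.63, 8.82 and 8.65 in whole flies on glucose and 9.01, 9.16 and 8.96 in whole flies on unmodified food. No arrays of the diets overlapped in either tissue, and the tissues moved in opposite directions. Its effect of 0.61 in midgut was larger in size than that of -0.34 in whole fly. The other members of the 10 were lili at 0.92, CG2926 at 0.87, hob at 0.77, CG10492 at 1.04 and pns at 1.34. These 5 had effects of 0.12 to 0.44 in midgut and fell in whole fly, by 0.54 to 0.90. Their adjusted p for the difference was 0.0559 to 0.0578.

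Among members with the smallest p for a negative difference, CG1208 led, a gene of the sugar transporter family. It had 7.15, 7.14 and 7.37 in midguts on glucose and 8.30, 7.89 and 7.84 in midguts on unmodified food, and 6.24, 6.25 and 6.36 in whole flies on glucose and 6.01, 5.75 and 5.59 in whole flies on unmodified food. It was lower on glucose in every midgut array and higher in every whole-fly array. The effects were -0.79 (SE 0.15) in midgut and 0.50 (SE 0.13) in whole fly, and the difference was -1.29 (SE 0.20, limma adjusted p = 0.0559). Over the alternatives the difference of CG1208 stayed between -1.41 and -1.11 and its adjusted p between 0.0236 and 0.142.

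Cyp6a2, a cytochrome P450 linked with insecticide metabolism, had 6.08, 6.30 and 5.60 in midguts on glucose, 6.38, 6.41 and 6.43 in midguts on unmodified food, 5.87, 5.67 and 5.89 in whole flies on glucose and 5.03, 5.21 and 4.92 in whole flies on unmodified food. Both tissues were separated by diet and in opposite directions. It rose by 0.76 in whole fly (adjusted p = 0.0371), and the difference was -1.17 (SE 0.22, adjusted p = 0.0674). CG13482 had the largest difference in size of these 10, at -1.65 (SE 0.32). Its arrays read 12.03, 11.69 and 11.98 in midguts on glucose, 12.40, 12.40 and 12.11 in midguts on unmodified food, 10.00, 9.68 and 10.04 in whole flies on glucose and 8.56, 8.16 and 9.26 in whole flies on unmodified food.

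CG34236 had 8.61, 8.63 and 8.68 in midguts on glucose and 8.56, 8.83 and 9.06 in midguts on unmodified food, and 6.87, 6.77 and 6.89 in whole flies on glucose and 5.89, 5.77 and 6.17 in whole flies on unmodified food. It overlapped in midgut and rose by 0.90 in whole fly (adjusted p = 0.0334). CG30269, osi and CG16775 had midgut effects of 0.17, 0.03 and -0.27 and also rose in whole fly, by 0.94, 0.81 and 0.76. The remaining 3, CG34198, CG17928 and CG5973, had effects of -0.41, -0.68 and -0.53 in midgut and 0.47, 0.44 and 0.35 in whole fly, none of which passed.

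**Figure D3:**
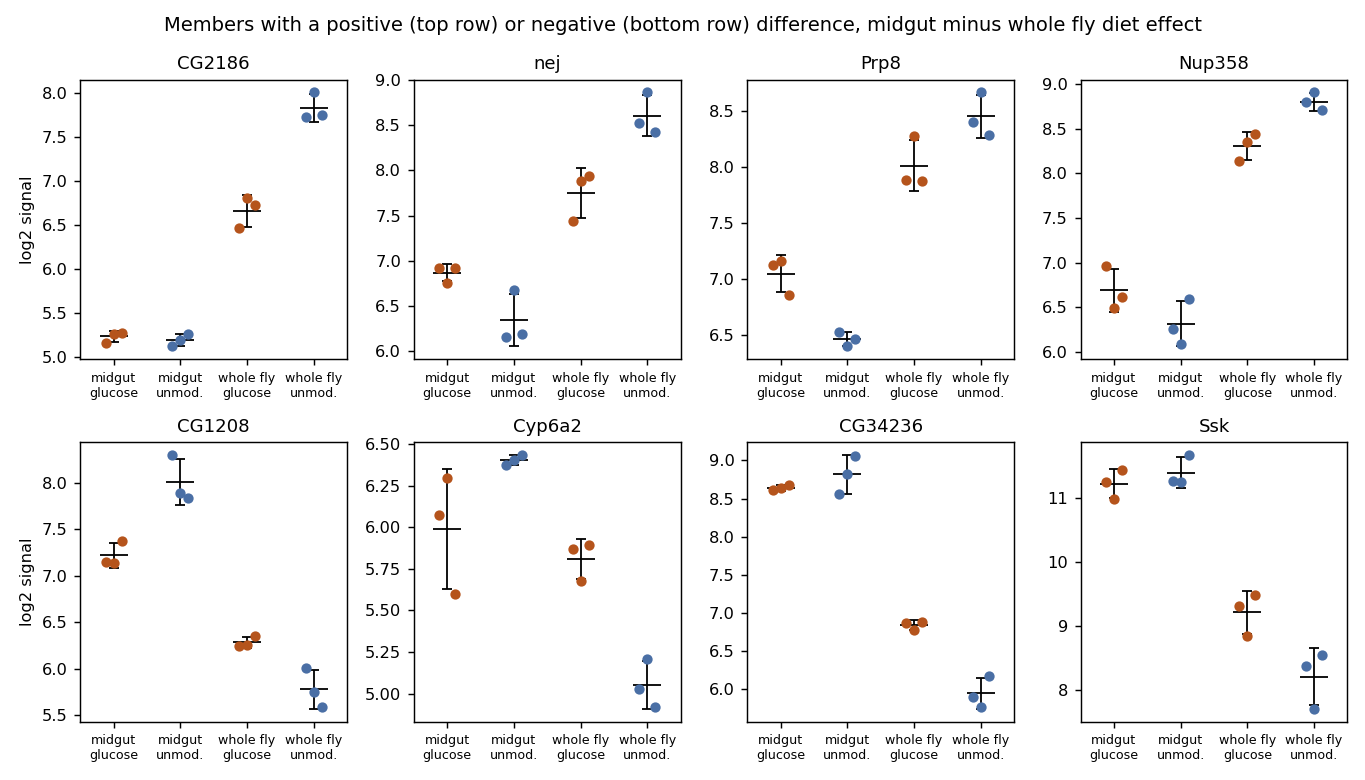
Log2 signal of 8 members in all 12 arrays, with glucose (orange) left of unmodified (blue) within each tissue. The black bar is the group mean and the whiskers span 1 SD (n = 3). In the top row (CG2186, nej, Prp8, Nup358) whole flies are lower on glucose while midguts are level or higher, and in the bottom row (CG1208, Cyp6a2, CG34236, Ssk) whole flies are higher on glucose while midguts are level or lower.

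Diets did not overlap in midgut for 800 members (12.7%, beside 11.7% of all probe sets), in whole fly for 2355 (37.5%, beside 25.4%) and in both for 286 (4.56%, beside 2.92%). Of the 286, 131 were higher on glucose in both tissues, 37 lower in both, 84 higher in midgut and lower in whole fly, and 34 lower in midgut and higher in whole fly. Among all probe sets these 4 patterns made up 1.13%, 0.448%, 0.826% and 0.511%, and among members 2.09%, 0.59%, 1.34% and 0.542%.

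Of the 84 members higher in midgut and lower in whole fly, the 6 named by size of effect included Prp8, ken, Cdc7 and gb. Prp8, the core protein of the spliceosome, had 7.12, 7.16 and 6.86 in midguts on glucose and 6.53, 6.40 and 6.47 in midguts on unmodified food, against 7.88, 8.28 and 7.88 in whole flies on glucose and 8.41, 8.67 and 8.29 in whole flies on unmodified food. Its difference was 1.02 (SE 0.20, adjusted p = 0.0725). ken, a repressor that acts on JAK-STAT target genes, had effects of 0.49 in midgut and -0.53 in whole fly, and Cdc7, a kinase of DNA replication, 0.44 and -0.48. gb, an amino acid exchanger known from glia, had 7.32, 6.17 and 6.30 in midguts on glucose and 5.94, 5.68 and 5.71 in midguts on unmodified food, so that 1 array carried much of its midgut effect of 0.82. In whole flies gb had 7.13, 7.20 and 7.32 on glucose and 7.57, 7.93 and 7.56 on unmodified food.

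The 34 members lower in midgut and higher in whole fly included enzymes. Miox, the oxygenase that opens myo-inositol, had 6.54, 7.02 and 6.82 in midguts on glucose and 7.40, 7.60 and 7.19 in midguts on unmodified food, against 8.79, 8.21 and 8.17 in whole flies on glucose and 7.81, 7.29 and 8.10 in whole flies on unmodified food. Its effects were -0.60 and 0.66, but the whole-fly arrays nearly touched. Cyp9b2, a cytochrome P450, had 9.83, 9.86 and 10.22 in midguts on glucose, 10.56, 10.39 and 10.74 in midguts on unmodified food, 8.09, 7.76 and 7.94 in whole flies on glucose and 7.62, 6.76 and 7.45 in whole flies on unmodified food, with effects of -0.59 and 0.65. CG9512 had the largest difference of the 6 named, -1.66 (SE 0.47, adjusted p = 0.146), from -0.84 in midgut and 0.83 in whole fly.

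Other members had effects of 1 direction in both tissues, with differences that did not pass. CG1648 was the member that passed in midgut and it passed in whole fly too. It had 9.84, 9.70 and 9.94 in midguts on glucose and 8.28, 8.29 and 8.46 in midguts on unmodified food, and 11.34, 10.43 and 11.13 in whole flies on glucose and 9.29, 9.30 and 9.37 in whole flies on unmodified food. It rose by 1.49 (SE 0.11) in midgut and 1.65 (SE 0.22) in whole fly, and the difference was -0.17 (SE 0.26, adjusted p = 0.822). Without whole fly glucose replicate 1 the difference was 0.02. CG33494 had effects of 0.90 in midgut and 1.36 in whole fly, and rose in whole fly.

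sug, a sugar-responsive transcription factor gene, had 9.39, 10.21 and 9.72 in midguts on glucose and 8.78, 9.29 and 9.14 in midguts on unmodified food, and 8.35, 8.13 and 8.13 in whole flies on glucose and 7.02, 6.81 and 7.35 in whole flies on unmodified food. No arrays of the diets overlapped in either tissue. Its midgut effect was 0.70, it rose by 1.14 in whole fly (adjusted p = 0.0334), and the difference was -0.45 (SE 0.29, adjusted p = 0.5). Npc2h, of the sterol-binding NPC2 family, had effects of 0.81 and 1.37, and its whole-fly arrays on glucose ranged widely, 6.99 to 8.63. The chitinase-like growth factor gene Idgf1 had 0.86 and 0.85, with a difference of 0.01 (SE 0.35).

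Members lower on glucose in both tissues included lipase-family genes. CG8093, of the lipase family, had 7.02, 7.76 and 8.05 in midguts on glucose and 10.34, 9.83 and 9.62 in midguts on unmodified food, and 4.12, 5.29 and 5.56 in whole flies on glucose and 7.29, 6.99 and 6.79 in whole flies on unmodified food. Its midgut effect was -2.32, it fell by 2.04 in whole fly (adjusted p = 0.0371), and the difference was -0.28 (SE 0.50). The lipase-family gene CG6283 had effects of -1.26 in midgut and -1.27 in whole fly, where it fell (adjusted p = 0.0391), and a difference of 0.01 (SE 0.34). CG15533 had -1.87 in midgut and -1.27 in whole fly, and CG8997, CG7916 and CG7953 had -1.57, -1.45 and -1.42 in midgut and -1.23, -1.35 and -1.19 in whole fly. The SE of the difference was 0.34 to 0.55 over these 6 genes. CG2186, at the edge of passing, had a difference of 1.21 with an SE of 0.16. Differences well above these SE values could therefore have been missed.

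**Figure D4:**
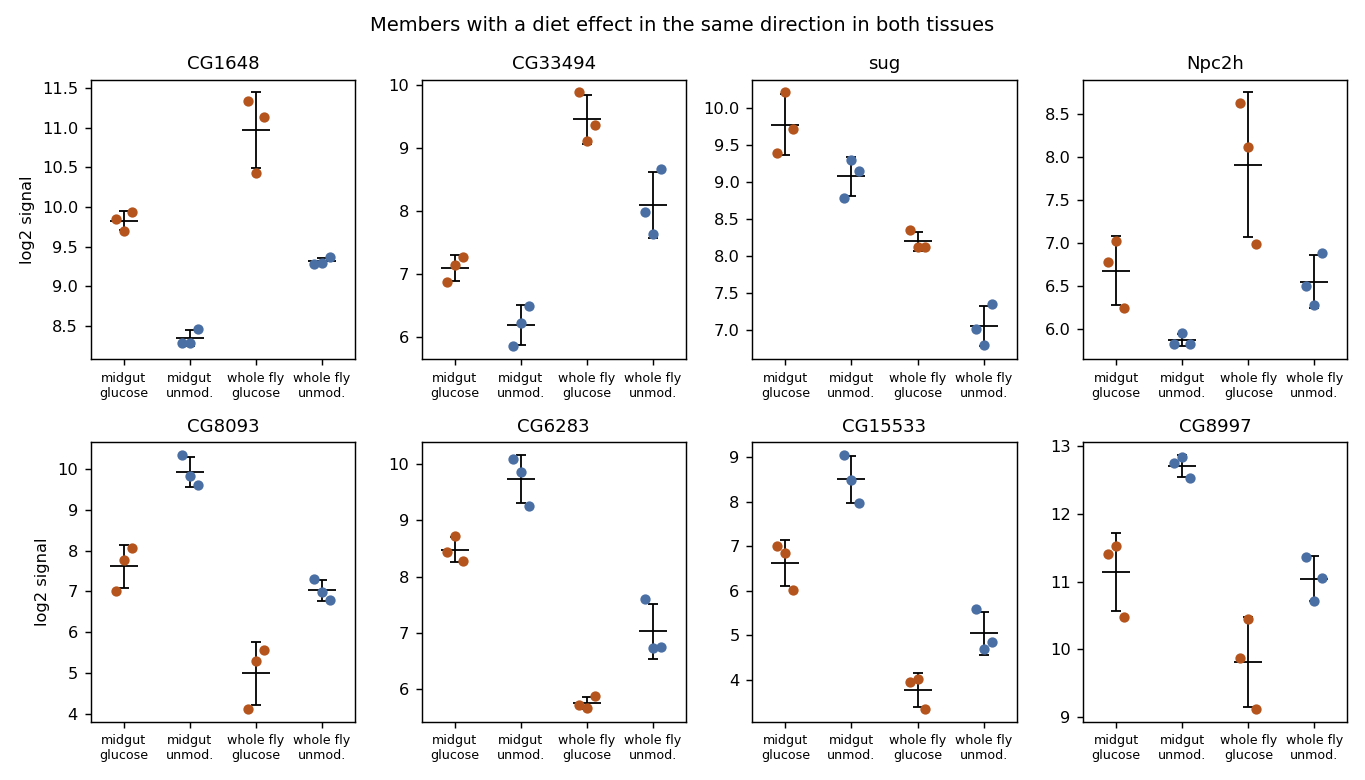
Log2 signal in all 12 arrays of 8 members with diet effects in 1 direction in both tissues, with glucose (orange) left of unmodified (blue) within each tissue. The black bar is the group mean and the whiskers span 1 SD (n = 3). The top row (CG1648, CG33494, sug, Npc2h) is higher on glucose in midgut and in whole fly and the bottom row (CG8093, CG6283, CG15533, CG8997) lower in both.

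Gene lists were read against all 5311 member genes, of which 14.6% had a positive and 8.7% a negative difference at an unadjusted p under 0.05, with a median difference of 0.07, from 0.04 in midgut and -0.04 in whole fly. The difference was positive for 3028 of the 5311. Apart from CG2186 no member passed over all probe sets, so the counts below are at that unadjusted p. They varied when 1 array was left out. Probe sets of near-identical family members (glutathione transferases, lysozymes, trypsins) may share signal, which was not tested.

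Nucleoporins, which build the nuclear pore, lay on 1 side. All 14 of 14 member nucleoporin genes had a positive difference, also with any 1 array left out, with a median of 0.55, and 9 were at an unadjusted p under 0.05. The median effect was 0.18 in midgut and -0.45 in whole fly, where 0 of 14 were positive. Nup358, a large nucleoporin of the cytoplasmic filaments, had 6.96, 6.50 and 6.62 in midguts on glucose and 6.26, 6.10 and 6.59 in midguts on unmodified food, and 8.14, 8.35 and 8.44 in whole flies on glucose and 8.80, 8.91 and 8.70 in whole flies on unmodified food. Nup154, Nup214 and Nup153 had midgut effects of 0.35, 0.21 and 0.16 and fell in whole fly, by 0.58, 0.54 and 0.52.

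Splicing genes followed, with 23 of 24 positive and a median difference of 0.33, from 0.13 in midgut and -0.19 in whole fly, and 5 at an unadjusted p under 0.05, a number that was 9 without whole fly unmodified replicate 3 and 8 without midgut glucose replicate 3 or midgut unmodified replicate 3. The splicing median was 0.18 without whole fly unmodified replicate 2. Sf3b1, of the branch-point complex, had effects of 0.23 and -0.26, and Prp19 0.26 and -0.24. Genes of cell division and DNA replication had a median difference of 0.54, all 15 of 15 positive, but it came from whole fly, with a median of 0.01 in midgut and -0.53 in whole fly. In whole fly CycD, a G1 cyclin, fell by 0.65 and dup, a replication licensing factor, by 0.84. Bub1, a spindle checkpoint kinase, had 6.66, 6.67 and 6.46 in midguts on glucose, 6.37, 6.40 and 6.12 in midguts on unmodified food, 7.19, 7.50 and 7.36 in whole flies on glucose and 7.85, 8.14 and 7.59 in whole flies on unmodified food. The number at an unadjusted p under 0.05 was 6, and 2 without midgut glucose replicate 1, whole fly glucose replicate 1 or whole fly unmodified replicate 2.

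Germline and maternal genes had a median difference of 0.37, 11 of 11 positive, from 0.10 in midgut and -0.37 in whole fly. It was 0.24 without midgut unmodified replicate 3 and 0.56 without midgut glucose replicate 2. smg, an RNA-binding repressor of maternal transcripts, had 6.32, 4.77 and 5.26 in midguts on glucose and 5.86, 5.05 and 5.15 in midguts on unmodified food, against 9.73, 10.10 and 10.26 in whole flies on glucose and 10.98, 11.28 and 11.06 in whole flies on unmodified food. It fell by 1.08 in whole fly (adjusted p = 0.0343), and its midgut arrays numbered 1 were the highest on both diets. The smg difference was 1.18, and 0.74 without midgut glucose replicate 1. me31B, an RNA helicase, and enc fell in whole fly by 0.56 and 0.51. The mean of 9 germline markers was lower in whole flies on glucose, 7.97 to 8.24, than on unmodified food, 8.48 to 8.75, and in midguts reached 4.94 in glucose replicate 1. Of the 9, 6 were lower on glucose in whole flies without overlap, stau and bam overlapped, and grk was higher, at 7.82, 7.45 and 7.69 in whole flies on glucose and 7.37, 7.18 and 7.32 in whole flies on unmodified food. Their part in the results on nucleoporins, splicing, cell division and germline genes, and on ribosome biogenesis below, was not tested.

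RpS5b, a ribosomal protein paralog enriched in the germline, was also highest in those arrays. It had 10.55, 6.07 and 5.90 in midguts on glucose and 7.70, 4.83 and 5.97 in midguts on unmodified food, and 12.40, 12.41 and 12.46 in whole flies on glucose and 12.64, 12.69 and 12.57 in whole flies on unmodified food. Replicate 1 was the highest midgut array on both diets, and the RpS5b difference of 1.55 (SE 1.41) was 0.03 without midgut glucose replicate 1.

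The list of eggshell and yolk genes had 5 members, with a median difference of -0.28, 2 positive and 3 negative. The chorion gene Cp15 had the highest difference of all members, 2.94 (SE 1.05, adjusted p = 0.218). Its arrays read 3.73, 4.28 and 3.74 in midguts on glucose and 4.64, 4.18 and 6.82 in midguts on unmodified food, and 8.25, 10.06 and 7.26 in whole flies on glucose and 13.29, 11.71 and 13.30 in whole flies on unmodified food. It entered as a member through 1 unmodified midgut array, and it fell by 4.24 in whole fly (adjusted p = 0.0371). Of 9 measured eggshell markers, Cp15 alone was separated by diet in whole flies, and the other 8 overlapped there. Among these 8, Cp36 had 13.41, 11.65 and 12.54 in whole flies on glucose and 12.64, 12.35 and 6.17 on unmodified food. The yolk protein gene Yp3 had effects of -0.42 in midgut and 0.06 in whole fly. Lsp2, a larval serum protein gene of the fat body list, had 4.68 to 5.18 in midguts on glucose against 5.24 to 5.68 in midguts on unmodified food, and 6.96, 8.13 and 6.24 in whole flies on glucose and 10.66, 9.08 and 9.05 in whole flies on unmodified food. The Lsp2 difference was 1.91, unlike most of that list. The 12 fat body member genes had a median difference of -0.45, 10 negative, from -0.24 in midgut and 0.14 in whole fly.

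Ribosome biogenesis genes differed from these in that the midgut carried the difference. Their median was 0.28, with 25 of 28 positive, from 0.26 in midgut and -0.05 in whole fly, and 27 of 28 were positive in midgut. At an unadjusted p under 0.05 stood 5 of the 28, or 17.9%, beside 14.6% of all member genes. Without midgut glucose replicate 1 that number was 3, the positive ones were 17 of 28 and the median 0.20. Without both midgut arrays numbered 1 the number was 2 and the median 0.19. mbm, a nucleolar protein gene, had 6.86, 6.26 and 6.28 in midguts on glucose and 6.03, 5.63 and 6.12 in midguts on unmodified food, with a difference of 0.83 (SE 0.26), and the RNA helicase gene pit had 0.61 (SE 0.21). Aminoacyl-tRNA synthetases, which charge tRNAs, had a median of 0.23, 20 of 23 positive, from 0.12 in midgut and -0.11 in whole fly.

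Mitochondrial ribosomal proteins, 69 members, had a median difference of 0.16, from 0.24 in midgut, where 66 were positive, and 0.08 in whole fly, where 51 were positive. It was 0.03 without midgut glucose replicate 1 and 0.29 without midgut glucose replicate 3, 0.09 without midgut unmodified replicate 3 and 0.06 without whole fly unmodified replicate 2. After quantile normalization over 12 arrays the median difference was 0.01. At an unadjusted p under 0.05 stood 1 gene, a number that was 15 without midgut glucose replicate 3 and 2 without whole fly glucose replicate 2, whole fly unmodified replicate 1 or whole fly unmodified replicate 3. Cytosolic ribosomal proteins, 34 members, had medians of 0.14 in midgut and 0.07 in whole fly and a median difference of 0.08, with 0 at an unadjusted p under 0.05 in the limma fit, 0 adjusted, and at most 1 without 1 array. Their median difference was 0.042 without midgut glucose replicate 1, 0.055 without whole fly unmodified replicate 2 and 0.135 without midgut glucose replicate 3. Proteasome genes had a median of 0.13, 21 of 26 positive, from 0.04 in midgut and -0.10 in whole fly, and 0.073 without whole fly unmodified replicate 2.

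3 of the 4 members of the JAK-STAT list, a cytokine pathway active in midgut renewal and in the ovary, had a positive difference at an unadjusted p under 0.05, also with any 1 array left out. The receptor gene dome had 7.13, 6.83 and 7.09 in midguts on glucose, 6.95, 7.21 and 6.92 in midguts on unmodified food, 6.99, 7.43 and 7.36 in whole flies on glucose and 8.05, 8.25 and 7.83 in whole flies on unmodified food. The midgut effect of dome was -0.01, and it fell by 0.78 in whole fly (adjusted p = 0.0462). The phosphatase gene Ptp61F had 0.02 and -0.63, and the transcription factor gene Stat92E had -0.31 and -0.11.

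Cytochrome P450s, enzymes that oxidise foreign and endogenous compounds, lay mostly on the negative side. Of 40 member genes 36 had a negative difference, with a median of -0.56, from -0.18 in midgut and 0.42 in whole fly, where 34 of 40 were positive. At an unadjusted p under 0.05 stood 16 negative and 2 positive ones, and 13 to 20 negative ones with 1 array left out. Cyp6a14 had 8.32, 8.55 and 8.77 in midguts on glucose, 8.73, 9.07 and 9.14 in midguts on unmodified food, 6.65, 6.25 and 6.54 in whole flies on glucose and 6.21, 5.89 and 5.77 in whole flies on unmodified food. The median was -0.35 without whole fly unmodified replicate 2.

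Glutathione transferases, which conjugate foreign compounds, had a median of -0.30 over 23 genes, 16 negative, which was -0.19 without midgut unmodified replicate 1. GstD2 had 8.11, 7.12 and 8.06 in midguts on glucose and 9.46, 7.74 and 9.29 in midguts on unmodified food, and 6.86, 6.54 and 7.44 in whole flies on glucose and 5.19, 5.84 and 5.77 in whole flies on unmodified food. Its midgut effect was -1.07, it rose by 1.35 in whole fly (adjusted p = 0.0404), and the difference was -2.42 (SE 0.59, adjusted p = 0.118). UDP-glycosyltransferases had a median of -0.42 over 13 genes, which was -0.06 without whole fly unmodified replicate 2 -0.22 without midgut unmodified replicate 3 and -0.24 without whole fly glucose replicate 2. Cat, the catalase gene, had effects of -0.32 in midgut and 0.62 in whole fly.

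**Figure D5:**
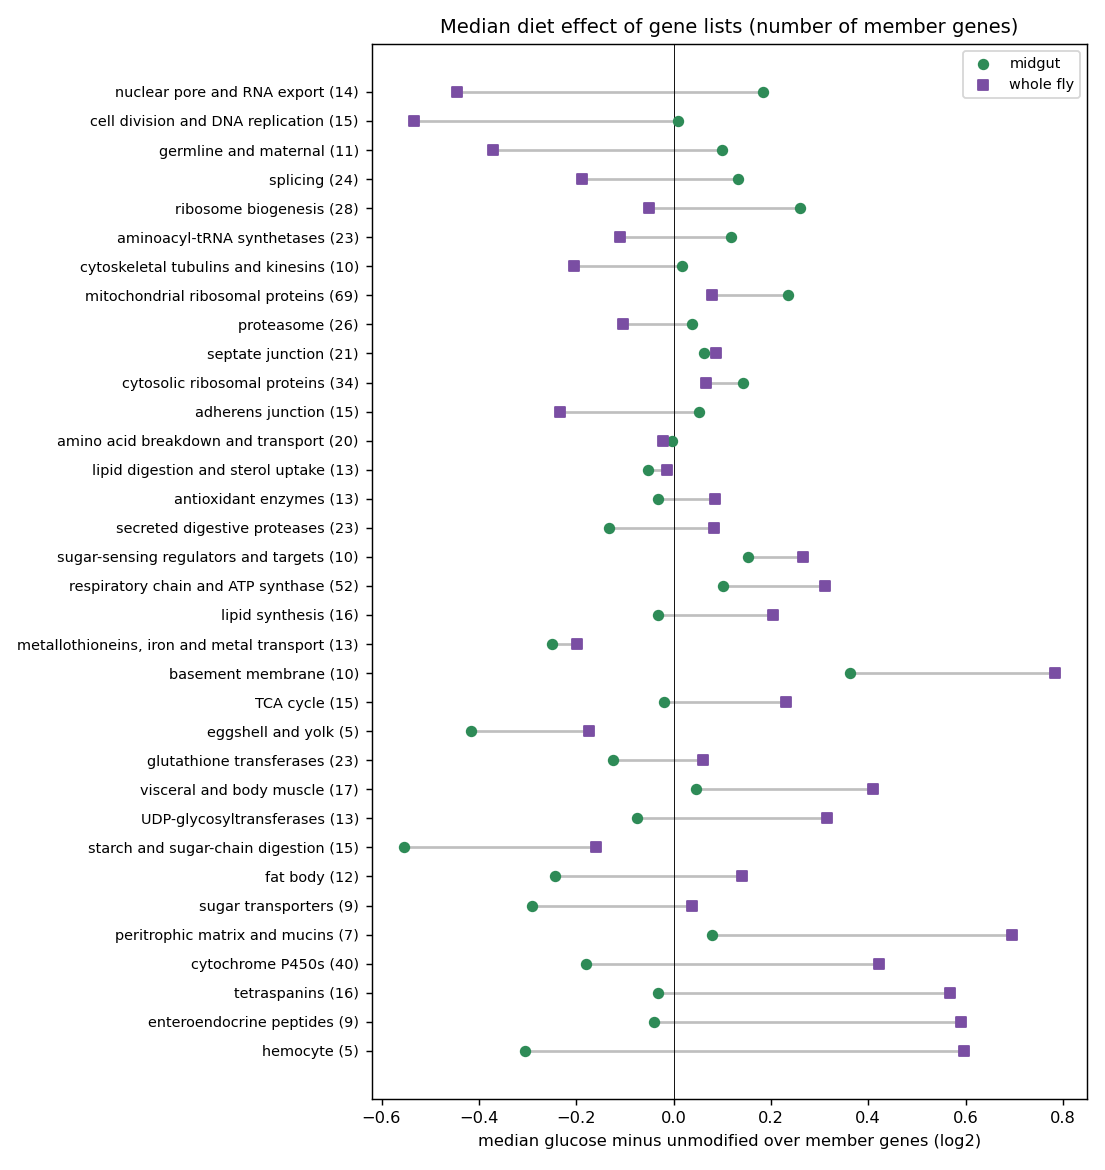
Median diet effect (glucose minus unmodified, log2) over the member genes of each list, green circles for midgut and purple squares for whole fly, ordered by the median difference with the most positive at the top. The number of member genes stands in parentheses. In the top lists the midgut median lies right of the whole-fly median (nuclear pore, 0.18 in midgut and -0.45 in whole fly), and in the lower lists it lies to the left (cytochrome P450s, -0.18 in midgut and 0.42 in whole fly).

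Transcripts of junction genes, which were not limited to those of the gut, behaved unlike each other. The septate junction list as a whole had a median of 0.09, with 4 members on each side at an unadjusted p under 0.05. The sign turned under quantile normalization over 12 arrays (-0.10) and without midgut glucose replicate 3 (-0.01). With all member probe sets of a gene averaged, the median was -0.001. The 3 genes of this list for proteins of smooth septate junctions, the type found in the gut, were all on the negative side. Ssk had 11.24, 10.98 and 11.43 in midguts on glucose, 11.25, 11.24 and 11.66 in midguts on unmodified food, 9.31, 8.85 and 9.49 in whole flies on glucose and 8.38, 7.71 and 8.55 in whole flies on unmodified food, a difference of -1.18 (SE 0.32, adjusted p = 0.135). Tsp2A and mesh had -1.13 (SE 0.36) and -0.92 (SE 0.34). Their midgut effects were -0.17, -0.16 and -0.05 and their whole-fly effects 1.004, 0.97 and 0.86. The adherens junction list had a median difference of 0.04 over 15 genes, 10 positive and 5 negative, which was -0.12 without midgut glucose replicate 3. Its 4 genes at an unadjusted p under 0.05 were positive, among them crb and pyd, which act in epithelial polarity, at 0.66 and 0.77. pyd fell by 0.64 in whole fly.

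Tetraspanins, membrane proteins of 16 member genes, had a median of -0.56, 14 negative, from -0.03 in midgut and 0.57 in whole fly. The median was -0.36 without whole fly unmodified replicate 2. 7 were negative at an unadjusted p under 0.05, and 2 without midgut glucose replicate 2, 3 without midgut unmodified replicate 3 or whole fly glucose replicate 3, and 4 without midgut glucose replicate 1, whole fly glucose replicate 1 or whole fly unmodified replicate 2. Both positive genes, Tsp74F at 1.02 and Tsp97E at 0.54, were also at an unadjusted p under 0.05 in the limma fit. Tsp42Ed lay at 11.17 to 11.38 in midguts on glucose and 11.21 to 11.53 in midguts on unmodified food, and had 9.41, 9.22 and 9.64 in whole flies on glucose and 8.76, 7.99 and 8.96 in whole flies on unmodified food. The list of peritrophic matrix and mucin genes was negative for 7 of 7, with medians of 0.08 in midgut and 0.69 in whole fly. The peritrophic matrix lines the gut lumen, but whether each listed gene acts there was not tested. At an unadjusted p under 0.05, 3 were negative, and as few as 1 with 1 array left out. Gasp rose by 0.69 in whole fly (adjusted p = 0.0473), and Mur29B had a midgut effect of 0.08, and 10.30, 9.36 and 10.18 in whole flies on glucose and 8.25, 7.87 and 9.06 in whole flies on unmodified food.

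Secreted digestive proteases had a median of -0.21, 19 of 23 negative, from -0.13 in midgut and 0.08 in whole fly, and -0.01 without whole fly unmodified replicate 2, -0.44 without whole fly unmodified replicate 1, -0.36 without midgut glucose replicate 2 and -0.33 without whole fly glucose replicate 3. The trypsins etaTry, kappaTry and lambdaTry had midgut effects of -0.35, -0.19 and -0.25 and whole-fly effects of 0.89, 0.83 and 0.76. The lambdaTry difference was -0.66 without whole fly unmodified replicate 2. Enzymes of starch and sugar-chain digestion had the lowest midgut median of the lists plotted, -0.55, with 14 of 15 negative in midgut, and -0.16 with 10 of 15 negative in whole fly. Their median difference of -0.43 had 0 genes at an unadjusted p under 0.05 in the limma fit and 0 adjusted, and at most 2 without 1 array, and it was -0.07 without both midgut arrays numbered 1. With 1 array left out it was nearest to 0, at -0.14, without whole fly unmodified replicate 2, then -0.19 without midgut unmodified replicate 1, -0.20 without whole fly glucose replicate 2 and -0.27 without midgut glucose replicate 1 or whole fly glucose replicate 3. The maltase gene Mal-B1 had 9.72, 8.87 and 7.87 in midguts on glucose and 10.55, 10.32 and 9.49 in midguts on unmodified food, and 8.24, 7.88 and 7.53 in whole flies on glucose and 8.17, 8.20 and 8.33 in whole flies on unmodified food. The Mal-B1 difference was -0.95, and -0.48 without midgut glucose replicate 3.

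Enterocyte markers, by their mean, overlapped between diets in midgut (12.04 to 12.09 on glucose and 12.03 to 12.14 on unmodified food) and in whole fly (9.52 to 9.89 on glucose and 8.98 to 9.80 on unmodified food). In midguts betaTry, Jon65Aiii and alphaTry lay near the highest signal of the table, 14.1, where little difference can show. Of the 7, Mal-A1 was lower on glucose in midguts without overlap, and the other 6 overlapped there. It had 12.76, 12.89 and 12.84 in midguts on glucose and 13.35, 12.93 and 12.94 in midguts on unmodified food. In whole flies nub was higher on glucose without overlap, at 8.28, 7.46 and 7.64 on glucose and 7.03, 6.20 and 7.22 on unmodified food, and the other 6 overlapped there. The part of midgut RNA within whole-fly RNA in the results on P450s, junction proteins, mucins and proteases was not tested.

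Enteroendocrine peptide genes had a median difference of -0.63, 8 of 9 negative, from -0.04 in midgut and 0.59 in whole fly. 6 were negative and 1 positive at an unadjusted p under 0.05, and 5 or 6 were negative with any 1 array left out. The hormone gene Dh31 had 5.47, 5.42 and 5.39 in midguts on glucose and 5.71, 6.06 and 5.18 in midguts on unmodified food, and 6.48, 6.20 and 6.58 in whole flies on glucose and 5.56, 5.39 and 5.85 in whole flies on unmodified food. Dh31 rose by 0.82 in whole fly (adjusted p = 0.0404). AstC, which encodes allatostatin C, had -0.20 and 0.71. CCHa2, a nutrient-responsive peptide, had 7.37, 7.64 and 7.85 in midguts on glucose and 8.27, 8.79 and 8.02 in midguts on unmodified food, an effect of -0.74 beside 0.39 in whole fly. Of 7 measured enteroendocrine markers, 4 were higher and 0 lower on glucose in whole flies without overlap. The marker pros overlapped there, at 5.61 to 6.07 on glucose and 5.79 to 6.31 on unmodified food. Orcokinin and pros were higher in whole flies than in midguts. Which cells gave the whole-fly signal of these genes was not tested.

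Genes of sugar handling other than CG1208 were mixed. Sugar transporters had a median of -0.51 over 9 genes, 6 negative, which was -0.33 without whole fly unmodified replicate 2, with 8 of 9 negative in midgut. CG4607 had -0.40 in midgut and 0.41 in whole fly, and sut1 0.02 and -0.65. Members of the sugar-sensing list had a median of -0.21 over 10 genes, from 0.15 in midgut and 0.27 in whole fly, with 0 at an unadjusted p under 0.05 in the limma fit and 0 adjusted, and at most 1 without 1 array. That median was -0.14 without midgut unmodified replicate 2. The TGF-beta ligand gene daw had 0.37 and 0.94, and cbt, a sugar-induced transcription factor gene, 0.28 and 0.63, with a rise in whole fly (adjusted p = 0.0389).

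Respiratory chain and ATP synthase genes had a median of -0.21, 44 of 52 negative, although both tissues had positive medians, 0.10 in midgut and 0.31 in whole fly. RFeSP, the Rieske iron-sulfur protein of complex III, had 10.09, 10.08 and 9.83 in midguts on glucose and 10.03, 10.02 and 9.87 in midguts on unmodified food, and 10.23, 10.00 and 10.08 in whole flies on glucose and 9.58, 9.41 and 9.62 in whole flies on unmodified food. RFeSP rose by 0.56 and the complex I gene ND-18 by 0.58 in whole fly. The list median was -0.10 without midgut glucose replicate 3. TCA cycle genes had -0.23, 13 of 15 negative, from -0.02 in midgut and 0.23 in whole fly, and -0.12 without midgut glucose replicate 3. The proline synthesis gene P5CS had a midgut effect of 0.11 and rose by 1.02 in whole fly (adjusted p = 0.0334), with a difference of -0.91 (SE 0.20, adjusted p = 0.101).

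Muscle genes had a median of -0.42, 15 of 17 negative, from 0.05 in midgut and 0.41 in whole fly, where all 17 were positive. The median was -0.24 without whole fly unmodified replicate 2. up, troponin T, rose by 0.53 in whole fly. The 8 measured muscle markers reached 8.85 to 9.41 in whole flies on glucose and 8.27 to 8.67 in whole flies on unmodified food, without overlap of the means and for 5 of the 8 singly, and 5.53 to 5.92 and 5.48 to 5.90 in midguts on glucose and on unmodified food. Hemocyte genes had a median of -0.81 over 5 genes, all negative, and Hml, which encodes hemolectin, rose by 1.04 in whole fly (adjusted p = 0.0476). Basement membrane genes were positive for 9 of 10 in each tissue, with medians of 0.36 in midgut and 0.78 in whole fly, and the collagen IV gene Col4a1 had 0.46 in midgut and rose by 0.80 in whole fly. The part of a changed share of muscle or of other organs in whole-fly RNA was not tested.

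Secreted defence proteins included members with large negative differences whose arrays varied widely. The lysozyme gene LysX had 9.78, 8.48 and 11.20 in midguts on glucose and 9.18, 8.0002 and 11.11 in midguts on unmodified food, and 9.64, 9.91 and 10.46 in whole flies on glucose and 4.56, 5.49 and 7.87 in whole flies on unmodified food. It rose by 4.03 in whole fly (SE 0.73, adjusted p = 0.0395), while the difference of -3.64 (SE 1.28) did not pass (adjusted p = 0.216). The antimicrobial peptide gene Mtk had 6.26, 4.81 and 6.58 in midguts on glucose and 6.43, 4.12 and 6.36 in midguts on unmodified food, and 9.48, 7.37 and 9.61 in whole flies on glucose and 5.83, 4.65 and 6.66 in whole flies on unmodified food. For Mtk, replicate 2 was the lowest array of every group.

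Array controls compare signal from the 3' and 5' ends of a transcript. The actin 3' minus 5' log2 difference averaged 2.62 in midguts on glucose and 2.13 in midguts on unmodified food, and 2.71 in whole flies on glucose and 2.68 in whole flies on unmodified food. The midgut-minus-whole-fly contrast of this measure was positive for all 3 controls, 0.46 for actin, 0.57 for eIF-4a and 0.16 for GAPDH, and the ranges of the diets overlapped in both tissues for each. The part of this measure in the results was not tested. Among the 182 genes with more than 1 member probe set, the probe sets of 131 had differences of 1 sign.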

How the data were processed

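Values are log2 signals of probe sets, deposited as 1 table with a column per array; that they are log2 is inferred from their range of 1.44 to 14.1. Per the submitters' processing notes the authors used Affymetrix Expression Console. Its version, how probes were summarised and whether midgut and whole-fly arrays were scaled jointly is not stated in the labels. The 183 Affymetrix controls were left out. limma 3.58.1 in R 4.3.3 (lmFit, eBayes) fitted the difference over all 12 arrays and each diet effect over the 6 arrays of its tissue, two-sided, with Benjamini-Hochberg adjustment over 18769 probe sets and a threshold of 0.05. The unadjusted threshold was also 0.05. The fit was tested on simulated data with independent noise and 1 base level per probe set in both tissues. They held no correlation between same-numbered arrays and no outlying array, so the test does not cover these features of the data.

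Deviations from the group means of same-numbered arrays correlated at 0.392, 0.313 and 0.357 in midgut and at 0.198, 0.306 and -0.00849 in whole fly. Replicate numbers were therefore taken to pair midgut arrays only, a reading from the data that the labels do not state.

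Members and the 55 gene lists were chosen with earlier results of these data known. A list uses 1 probe set per gene, the member probe set with the highest mean. Named genes were the 10 with the smallest p for the difference in each direction, the 6 largest by the smaller effect in each of 4 sign patterns among members without overlap in either tissue, and up to 4 members with the smallest p of each list described; the lists described were picked after their values were seen. Gene names come from the platform annotation, checked against RefSeq. Alternatives were other normalizations, filters, weights, blocks, membership thresholds and leaving out each array.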

Additional observations from a re-analysis of the deposited data

Results flagged for a closer look

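CG2186 had a diet effect that differed between the tissues by the test of the difference itself, at 1.21 (limma adjusted p = 0.0499993, at the edge of the threshold). With the replicate block in midgut, where same-numbered arrays deviated together, the adjusted p was 0.0552 and the difference no longer passed. Its signal was lower on glucose in each whole-fly array, with effects of 0.04 in midgut and -1.17 in whole fly, and in midgut its level of 5.12 to 5.28 over all 6 arrays was close to the membership threshold of 5.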

How the results depend on the processing

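The number of members passing the test of the difference (1) was 0 without the dimmest 40% of probe sets, with a trend and robust prior or with membership from 6, 5 after median centring, 7 and 2 after quantile normalization over all arrays and within tissue, 17 with array weights, and 0 to 157 with 1 array left out. With the replicate block within both tissues it was 383 and with a common block 15. With the block in midgut alone, an unplanned setting that takes replicate numbers there as pairs, it was 0. The 1435 members at an unadjusted p under 0.05 became 944 with membership from 6 and 914 to 1800 with 1 array left out. The midgut count (1) was 12 with the block and 0 with any 1 array left out. The whole-fly count (308) was 662 with the spread of all 12 arrays, 876 with the block and 0 to 784 with 1 array left out. In whole fly same-numbered arrays did not all deviate together, so a call gained under its block is not read further. Of 178 named probe sets, 31 of the alternative values changed sign, among genes whose difference was near 0. Idgf1 had -0.32 and -0.093 after the 2 quantile normalizations, CG7916 0.28, 0.035 and, with array weights, 0.15, CG7953 0.02 with array weights, and CG6283 -0.00817 after quantile normalization within tissue. Without both midgut arrays numbered 1, CG8093 had 0.22 and Drs 0.40. With 1 array left out the ranges were -0.44 to 0.021 for CG1648, -0.16 to 0.31 for Idgf1, -0.72 to 0.018 for CG8093, -0.48 to 0.37 for CG7916, -0.27 to 0.19 for CG6283, -0.59 to 0.16 for CG7953 and -0.77 to 0.47 for Drs. The causes were not tested. Signals near background compress differences, and 3 arrays a group limit the precision.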
